A study of Mus musculus with 44 samples.

Results

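The Rab GTPases of mouse plasma cells are described here across bone marrow and spleen. Members were taken by name, as gene rows called Rab followed by a number and at most 1 letter and 1 further digit, and by level, with a mean of at least 1 CPM (counts scaled to the library's total, the usual depth-corrected unit) over all 44 libraries. Of 54960 gene rows, 59 carry such a name and 43 passed the level, and all 43 entered the tests. The level alone decided membership, not any difference between groups. The members just inside it were Rab32 (2.29 CPM), Rab31 (2.98 CPM) and Rab35 (4.57 CPM), and the genes just outside were Rab42 (0.67 CPM), Rab37 (0.461 CPM) and Rab38 (0.373 CPM).

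Plasma cells were sorted as CD138high B220- cells from BEC-YFP mice given tamoxifen, then split into YFP+ cells, labelled LLPC, and YFP- cells, labelled Bulk PC. The 12 groups combine organ and YFP sort with 3 cohorts: mice aged 24 weeks at treatment at day 5, mice of that age at day 90 and young mice, treated at 6 to 8 weeks, at day 90. All groups share the BEC-YFP genotype and tamoxifen, and untreated or reporter-free mice were not analysed here. The promoter behind the tamoxifen-inducible label is not given in the sources used here. The labels name mice. In the main fit p-values measure the spread between animals within groups. That fit takes all libraries as independent, though up to 4 came from 1 mouse. With a term for each mouse (the mouse block), p-values measure the spread that remains within mice. At day 90 there were 4 libraries a group, or 3 in the YFP+ groups of young mice. At day 5 there were 3, or 4 in YFP+ spleen. YFP+ and YFP- cells mostly came from the same animals, so libraries of 1 mouse share their source.

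Rab proteins are small GTPases that sit on membranes as switches. Guanine nucleotide exchange factors (GEFs) load them with GTP, GTPase-activating proteins (GAPs) turn them off, and in the active state they recruit effectors that move, tether or fuse vesicles. Each Rab marks particular compartments, so the family covers the route from the endoplasmic reticulum (ER) through the Golgi to the plasma membrane, and the endosomes and lysosomes. Plasma cells send antibody along that route without pause. Rab3 and Rab27 proteins are best known from cells with regulated secretion, such as neurons and exocrine cells, where they act on vesicles docking at the plasma membrane.

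Total counts per library ran from 6643295 to 12663103. Jchain took between 19.9% and 46.2% of the counts. Sdc1 (CD138, the sort marker) was detected in all libraries, at 149 CPM in YFP- spleen of day-5 mouse 2, 190 and 238 CPM in YFP- spleen and marrow of 24-week mouse M2, and at least 321 CPM elsewhere. Day-5 mice are numbered by replicate. The defining B cell gene Pax5 had no count in 35 of 43 libraries, while Cd79b was found in all. Of the NK cell genes, Ncr1 had none in 42, while Gzma was found in all. In day-90 marrow 10 neutrophil genes summed to between 15.1 and 2640 CPM in YFP+ cells and between 14.9 and 778 CPM in YFP- cells. For 9 monocyte and macrophage genes the ranges were 12.6 to 1730 and 25 to 946 CPM. In day-5 marrow these were 1.61 to 83.9 and 0.904 to 142 CPM. Sums of 8 erythroid genes reached 2290 and 796 CPM in day-90 marrow. The part of these genes in the Rab differences was not tested.

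Per kilobase of exon, Rab2a, Rab7 and Rab1a led the family. Other members of their roles were among the lowest, such as Rab6b of the Golgi (1.02 CPM per kb) and Rab32 of late endosomal organelles (0.986). Rab2a, which acts between ER and Golgi, had 167 CPM per kb, Rab7, the late endosome and lysosome Rab, 111, and Rab1a, which is needed for ER-to-Golgi transport, 72.6. Rab4b, of early and recycling endosomes, followed with 57.8, and Rab8a, of delivery to the plasma membrane, with 46.5. Among the Rab3 genes, Rab3d stood at 19.4 CPM per kb, Rab3a at 12.2 and Rab3b at 9.54. Rab27a had 1.64 CPM per kb. Summed over all members, the family took a mean of between 2580 and 2842 CPM in the 12 groups. The SD of this sum within groups ran from 105 CPM (24-week YFP- marrow, day 90) to 336 CPM (YFP- spleen, day 5). Within groups the median SD of log2 CPM was 0.38 over the members, against 0.54 over all tested genes. The sets were not matched for level, and some members lay above both, such as Rab4a (1.87), Rab32 (1.34) and Rab20 (1.16).

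**Figure D1:**
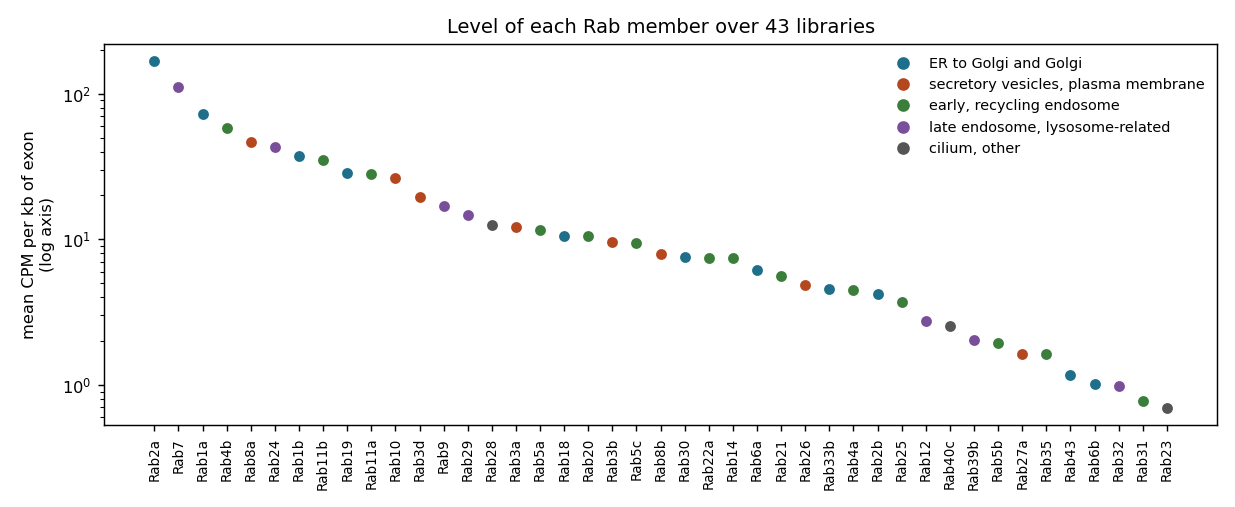
Mean level of each of the 43 Rab members over 43 libraries, in CPM per kilobase of exon on a log axis, ordered by level and coloured by role (late endosome includes lysosome-related organelles). Rab2a stands highest at 167 and Rab23 lowest at 0.696, and the Rab3 members lie near the middle.

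Several relatives were nearly silent. Rab3c, the remaining Rab3 gene, had 2 counts over all libraries, Rab27b 1 count and Rab17 2 counts. Rab15 and Rab9b had none.

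Rab3b, a Rab3 protein of secretory vesicles, differed by YFP at day 90 in both organs. In marrow of 24-week mice its level was 44.1, 56.9, 48.1 and 55.5 CPM in YFP+ cells of mice M2, M3, F15 and F12, and 25, 29.7, 31.9 and 21.3 CPM in YFP- cells of the same mice. In marrow of young mice it was 37.8, 44.9 and 57.7 CPM in YFP+ cells of F2, F7 and F9. In YFP- cells there it was 16.8, 22.4, 29.9 and 19.3 CPM in M7, F2, F9 and M2. Every YFP+ library stood above every YFP- library, a separation seen for 0.273% of all tested genes.

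In spleen of 24-week mice Rab3b was at 57, 74.1, 65 and 42.6 CPM in YFP+ cells of M2, M3, F15 and F12, against 19.1, 31.2, 29.5 and 25.3 CPM in YFP- cells. In young spleen YFP+ cells of F2, F7 and F9 had 50.1, 60.5 and 73.9 CPM of Rab3b. YFP- cells of M7, F2, F9 and M2 had 17.5, 22.1, 33.6 and 22.8 CPM. Here too the groups did not overlap, as for 1.14% of all tested genes.

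Over both ages Rab3b averaged 49.3 ± 7.63 CPM (SD, n = 7) in YFP+ and 24.5 ± 5.51 CPM (n = 8) in YFP- marrow, a log2 difference of 1.00 ± 0.15 (SE, 95% interval 0.70 to 1.3, edgeR adjusted p = 0.000128). In spleen the means were 60.4 ± 11.7 (n = 7) and 25.1 ± 5.81 CPM (n = 8), a log2 difference of 1.27 ± 0.15 (interval 0.97 to 1.57, edgeR adjusted p = 3.7e-07). Rab3b was the only member of 43 that edgeR called in either organ without a mouse term, where 0.458% of all 12457 tested genes were called in marrow and 3.53% in spleen. Within mice it was higher in YFP+ cells in 6 of 6 animals in marrow, by 1.51 to 2.61-fold, and in 6 of 6 in spleen, by 1.68 to 2.98-fold. The difference was 0.27 ± 0.22 larger in spleen than in marrow on the log2 scale (interval -0.15 to 0.69, adjusted p = 1), so no organ difference was shown, and with the mouse block, where 0.0883% of all genes differed this way, no member was called either. YFP+ libraries of young mice came only from mice with an F-prefixed name. Among F-prefixed mice alone the spleen call held (1.06, adjusted p = 0.0193), while in marrow the log2 difference was 0.90 ± 0.21 with an adjusted p of 0.144.

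**Figure D2:**
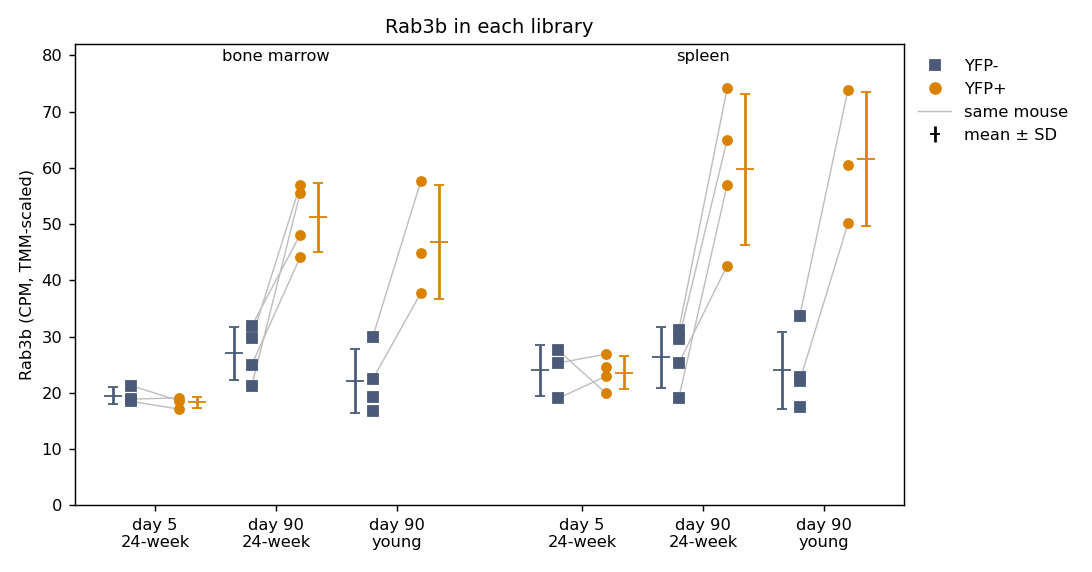
Rab3b in each of the 43 libraries, in CPM on a linear axis, by cohort and organ. Squares are YFP- and circles YFP+ libraries, grey lines join the sorts of 1 mouse, and bars give the group mean ± SD. At day 90 YFP+ libraries lie between 37.8 and 74.1 CPM and YFP- libraries between 16.8 and 33.6 CPM, and at day 5 both sorts lie between 17.1 and 27.6 CPM.

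Taken by age, the Rab3b difference was 0.92 ± 0.21 in marrow of 24-week mice (adjusted p = 0.0554, 0.12% of all genes called) and 1.08 ± 0.22 in marrow of young mice (adjusted p = 0.0289, 0.0963% called). In spleen it was 1.18 ± 0.21 in 24-week mice (adjusted p = 0.000997, 0.803% called) and 1.36 ± 0.22 in young mice (adjusted p = 0.00039, 0.923% called). No other member was called at either age. With the mouse block Rab3b was called at both ages in both organs. The marrow of 24-week mice, where 0.594% of all genes were then called, added Rab5a at -0.69 ± 0.15 (adjusted p = 0.0213), and their spleen, with 2.18% called, added none. Young mice added Rab20, at 2.69 in marrow (adjusted p = 0.0108, 0.289% of all genes called) and 2.11 in spleen (adjusted p = 0.0262, 2.78% called), against 1.86 and 1.07 without the block. Only F2 and F9 of the young mice have both sorts, so these blocked values rest on 2 mice. The difference between the ages itself was not called for Rab20 (blocked adjusted p = 0.716 in marrow and 0.958 in spleen) or for Rab5a in marrow (0.501).

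At day 5 the sorts were not separated for Rab3b. In marrow its level was 19.1, 17.1 and 18.6 CPM in YFP+ cells of day-5 mice 1, 2 and 3, and 18.9, 18.5 and 21.3 CPM in YFP- cells. In spleen it was 19.9, 23, 26.9 and 24.6 CPM in YFP+ cells of mice 1 to 4, and 27.6, 19 and 25.3 CPM in YFP- cells of mice 1 to 3. The log2 difference was -0.10 ± 0.24 in marrow (interval -0.57 to 0.38, adjusted p = 1) and -0.02 ± 0.22 in spleen (interval -0.46 to 0.42, adjusted p = 0.973).

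From day 5 to day 90, in 24-week mice, Rab3b rose in YFP+ cells of both organs. In marrow it went from 18.3 ± 1.02 (n = 3) to 51.2 ± 6.1 CPM (n = 4), a log2 change of 1.48 ± 0.23 (adjusted p = 0.000689), and in spleen from 23.6 ± 2.92 to 59.7 ± 13.4 CPM (n = 4 each), 1.34 ± 0.21 (adjusted p = 0.00028). It was again the only member that edgeR called with all libraries, with 0.136% of all tested genes called in marrow and 0.361% in spleen. In YFP- cells the log2 change of Rab3b was 0.47 ± 0.23 in marrow (19.5 ± 1.5 to 27 ± 4.74 CPM, adjusted p = 0.577) and 0.13 ± 0.22 in spleen (adjusted p = 1). No member was called in YFP- cells by edgeR, DESeq2 or limma voom, while 3 members in marrow and 0 in spleen had an unadjusted p under 0.05, against 8.64% and 4.2% of all genes. Day and cohort cannot be told apart, since day-5 and day-90 animals are different mice.

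The YFP difference of Rab3b at day 90 exceeded that at day 5 by 1.02 ± 0.32 on the log2 scale in marrow (adjusted p = 1) and 1.21 ± 0.30 in spleen (adjusted p = 0.183), neither past the threshold, which 0.0161% and 0.0562% of all genes passed. With mouse as a block the spleen value was 1.22 ± 0.23 (adjusted p = 0.00618, 0.731% of all genes called), and the marrow value 1.03 ± 0.23 (adjusted p = 0.0764). DESeq2 gave 1.24 in spleen (adjusted p = 0.0274). Age changed the difference by -0.16 ± 0.30 in marrow and -0.17 ± 0.30 in spleen (24-week minus young, both adjusted p = 1). Rab3b itself did not pass between 24-week and young mice in any of the 4 sorts and organs, with log2 differences from -0.04 to 0.29.

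Rab3b lies on chromosome 4 at 108879063-108943324 (plus strand) in the GENCODE M21 annotation of GRCm38, Rab3d on chromosome 9 at 21907491-21918192 and Rab20 on chromosome 8 at 11453518-11478710 (both minus strand). The sequences before their starts are shown because Rab3b is the called member, Rab3d its most abundant paralog in these cells and Rab20 the member whose group means followed Rab3b most closely. Each line holds the 250 bases before the RefSeq start (GRCm38.p6), 5′ to 3′ on the gene's strand. Capitals mark GGGCGG or its reverse complement, the letters of a GC box.
Rab3b, chr4:108878820-108879069, plus strand: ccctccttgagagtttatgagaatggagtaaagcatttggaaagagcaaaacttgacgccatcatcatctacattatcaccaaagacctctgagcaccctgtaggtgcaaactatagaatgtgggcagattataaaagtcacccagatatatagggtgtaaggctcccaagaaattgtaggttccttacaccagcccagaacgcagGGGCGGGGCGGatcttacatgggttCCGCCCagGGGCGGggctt
Rab3d, chr9:21918184-21918433, minus strand: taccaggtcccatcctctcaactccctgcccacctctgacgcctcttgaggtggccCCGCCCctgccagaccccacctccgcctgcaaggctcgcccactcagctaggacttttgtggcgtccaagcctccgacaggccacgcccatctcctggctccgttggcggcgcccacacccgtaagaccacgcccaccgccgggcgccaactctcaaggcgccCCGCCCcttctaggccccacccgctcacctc
Rab20, chr8:11478641-11478890, minus strand: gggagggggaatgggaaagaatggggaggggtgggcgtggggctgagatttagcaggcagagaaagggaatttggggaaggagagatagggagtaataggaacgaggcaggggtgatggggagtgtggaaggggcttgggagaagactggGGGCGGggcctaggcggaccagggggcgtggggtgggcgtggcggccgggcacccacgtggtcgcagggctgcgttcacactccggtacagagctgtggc
On both strands, with overlapping matches counted, the Rab3b window held GGGCGG 4 times, the Rab3d window 2 times and the Rab20 window 1 time. The Rab3b window was lower in G and C (48.8%) than those of Rab3d (69.2%) and Rab20 (65.2%). Rab3b also held TATAAA 1 time, and Rab20 held CACGTG, an E-box, 1 time. The GENCODE gene starts lie inside the windows, for Rab20 at 11478710, so its CACGTG falls within that annotated gene. CCAAT and TGACGT matched none of the 3 windows. GGGCGG was found in 31 of 45 promoter entries of the Rab members (68.9%, entries for 38 of 43 members) and in 32.7% of all 32851 promoters, TATAAA in 6.67% and 12.4%, CACGTG in 11.1% and 6.02%, CCAAT in 42.2% and 33.8%, and TGACGT in 13.3% and 6.47%. These are matches of letters only.

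The other secretory vesicle members did not share the call. Rab3d, which acts on secretory granules, was at 98.4 ± 20.6 CPM in YFP+ (lowest 67.5, median 98.7, highest 129, n = 7) and 69.7 ± 24.3 CPM in YFP- spleen at day 90 (22.8, 70.7 and 95.9, n = 8). The groups overlapped, and the log2 difference was 0.54 ± 0.22 (adjusted p = 0.183), although 6 of 6 mice were higher in YFP+ cells, by 1.04 to 3.51-fold. In marrow Rab3d averaged 81.5 ± 17.1 and 76.3 ± 19.5 CPM. Rab3a, the synaptic vesicle Rab, averaged 30.7 ± 4.65 against 28.8 ± 3.03 CPM in marrow and 27.3 ± 3.18 against 23.9 ± 3.06 CPM in spleen at day 90. Rab27a, which acts on secretory lysosomes and granules, averaged 7.04 ± 2 against 5.93 ± 2.51 CPM in marrow and 5.17 ± 2.04 against 5.92 ± 2.69 CPM in spleen. Over the 8 members of this role the median log2 difference was 0.10 in marrow and 0.07 in spleen.

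Rab20, an endosomal and phagosomal Rab, varied widely between mice but moved the same way within them. At day 90 its marrow level in YFP+ cells of 24-week mice M2, M3, F15 and F12 was 4.76, 12.2, 37 and 13.2 CPM, against 1.9, 5.79, 28.1 and 4.52 CPM in their YFP- cells. In young marrow Rab20 was at 44.8, 36.8 and 45.8 CPM in YFP+ cells of F2, F7 and F9, and at 10.3, 9.92, 7.2 and 19.3 CPM in YFP- cells of M7, F2, F9 and M2. The groups overlapped over both ages, and among 24-week mice F15 was the highest and M2 the lowest in both sorts.

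In spleen at day 90 Rab20 stood at 17.4, 28.2, 28.5 and 12.2 CPM in YFP+ cells of 24-week mice M2, M3, F15 and F12, and at 6.05, 9.32, 16.2 and 7.03 CPM in YFP- cells. Young YFP+ spleens had 21.1, 20 and 23.3 CPM of Rab20, and young YFP- spleens 15.7, 4.58, 3.5 and 17 CPM. Each mouse with both sorts was higher in YFP+ cells, 6 of 6 in marrow (1.32 to 6.36-fold) and 6 of 6 in spleen (1.73 to 6.67-fold).

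Without a block the log2 difference of Rab20 was 1.29 ± 0.57 in marrow (adjusted p = 0.49) and 1.12 ± 0.57 in spleen (adjusted p = 0.351). With mouse as a block it was 1.82 ± 0.33 (adjusted p = 0.00199) and 1.69 ± 0.34 (adjusted p = 0.00158), with both ages given equal weight. In the blocked fit 2 members were called in marrow, Rab20 and Rab3b, where 0.963% of all tested genes were called, and 4 in spleen, Rab20, Rab3b, Rab29 and Rab39b, where 5.99% were. Rab20 kept its call in both organs when the 3 libraries lowest in Sdc1 were left out of the blocked fit (1.71 and 1.72). In 24-week mice alone the blocked log2 difference of Rab20 in marrow was 0.95 ± 0.42 (edgeR adjusted p = 0.383). Rab20 was not called in their spleen either. The calls over both ages therefore lean on F2 and F9, the only young mice with both sorts.

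At day 5 Rab20 lay the other way in each of the 3 mice with both sorts. In marrow YFP+ cells of mice 1, 2 and 3 had 3.12, 0.841 and 17 CPM, and YFP- cells 9.22, 4.83 and 28.1 CPM. In spleen YFP+ cells of mice 1 to 4 had 0.822, 1.01, 14.6 and 6.19 CPM, and YFP- cells of mice 1 to 3 had 6.22, 9.48 and 17.5 CPM. The blocked log2 difference of Rab20 was -1.39 ± 0.50 in marrow (adjusted p = 1) and -1.90 ± 0.54 in spleen (adjusted p = 0.0457). Leaving out the libraries lowest in Sdc1, the blocked spleen value was -1.15 (adjusted p = 0.287). The day-90 YFP difference exceeded the day-5 difference by 3.17 ± 0.68 in spleen (blocked, adjusted p = 0.0178) and by 2.34 ± 0.66 in marrow (blocked, adjusted p = 0.34), against 2.13 ± 1.15 (adjusted p = 0.801) and 1.74 ± 1.20 (adjusted p = 1) without the block. Leaving out those low-Sdc1 libraries, the blocked spleen value was 2.47 (adjusted p = 0.114).

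**Figure D3:**
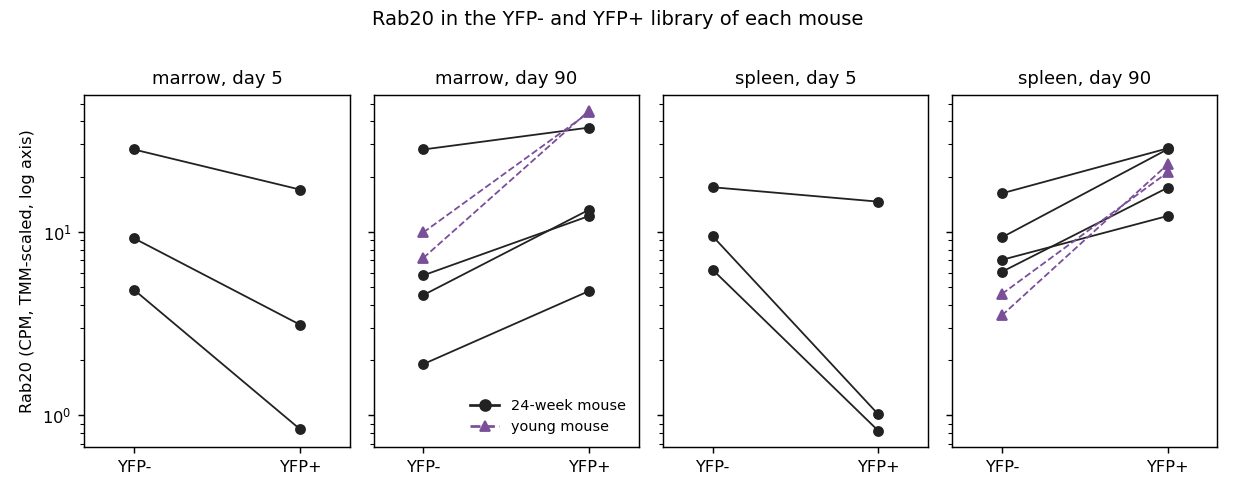
Rab20 in the YFP- and YFP+ library of each mouse with both sorts, in CPM on a log axis, for marrow and spleen at day 5 and day 90. All 6 lines of each organ slope up at day 90 and all 3 slope down at day 5.

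Late endosomal and lysosomal members held the 2 members that were lower in YFP+ spleen at day 90 with the mouse block, where 3.33% of all genes were called lower. Rab29, which acts at the trans-Golgi and lysosomes, averaged 16.7 ± 2.68 CPM in YFP+ (lowest 14.3, median 15.8, highest 22.3) and 24.5 ± 7.05 CPM in YFP- spleen (15, 23.9 and 36.5). Its log2 difference was -0.55 ± 0.17 (adjusted p = 0.053), and -0.58 with the block (adjusted p = 0.0297). Rab39b averaged 4.02 ± 1.43 CPM (1.57, 4.72 and 5.74) against 7.15 ± 3.15 CPM (3.3, 6.52 and 13.6), a log2 difference of -0.91 ± 0.28 (adjusted p = 0.0574), and -0.91 with the block (adjusted p = 0.0375). Rab39b was lower in YFP+ cells in 6 of 6 mice, and Rab29 in 5 of 6. Without the 3 libraries lowest in Sdc1 the blocked log2 difference was -0.44 for Rab29 (adjusted p = 0.0549) and -0.84 for Rab39b (adjusted p = 0.0523); of these libraries the YFP- spleen library of M2 is the highest in both genes (36.5 CPM for Rab29, 13.6 for Rab39b). That fit called Rab23 (-1.25 ± 0.36, adjusted p = 0.0341) and Rab24 (0.30 ± 0.09, adjusted p = 0.0431) beside Rab3b and Rab20, with 6.71% of all genes called.

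Across the family the YFP differences at day 90 were small and of both signs. In marrow 26 members had a positive and 17 a negative log2 difference, with a median of 0.07 against -0.01 over all tested genes. In spleen the split was 20 and 23, with a median of -0.01 for both. The 11 ER-to-Golgi and Golgi members ran from -0.46 (Rab2b) to 0.37 (Rab6b) in marrow and from -0.18 (Rab2a) to 0.22 (Rab30) in spleen, and none was called. The 14 early and recycling endosome members ran from -0.55 (Rab31) to 1.29 (Rab20) in marrow. The 3 remaining members were led in spleen by Rab23, a ciliary Rab, at -1.04 ± 0.35 (adjusted p = 0.0983).

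**Figure D4:**
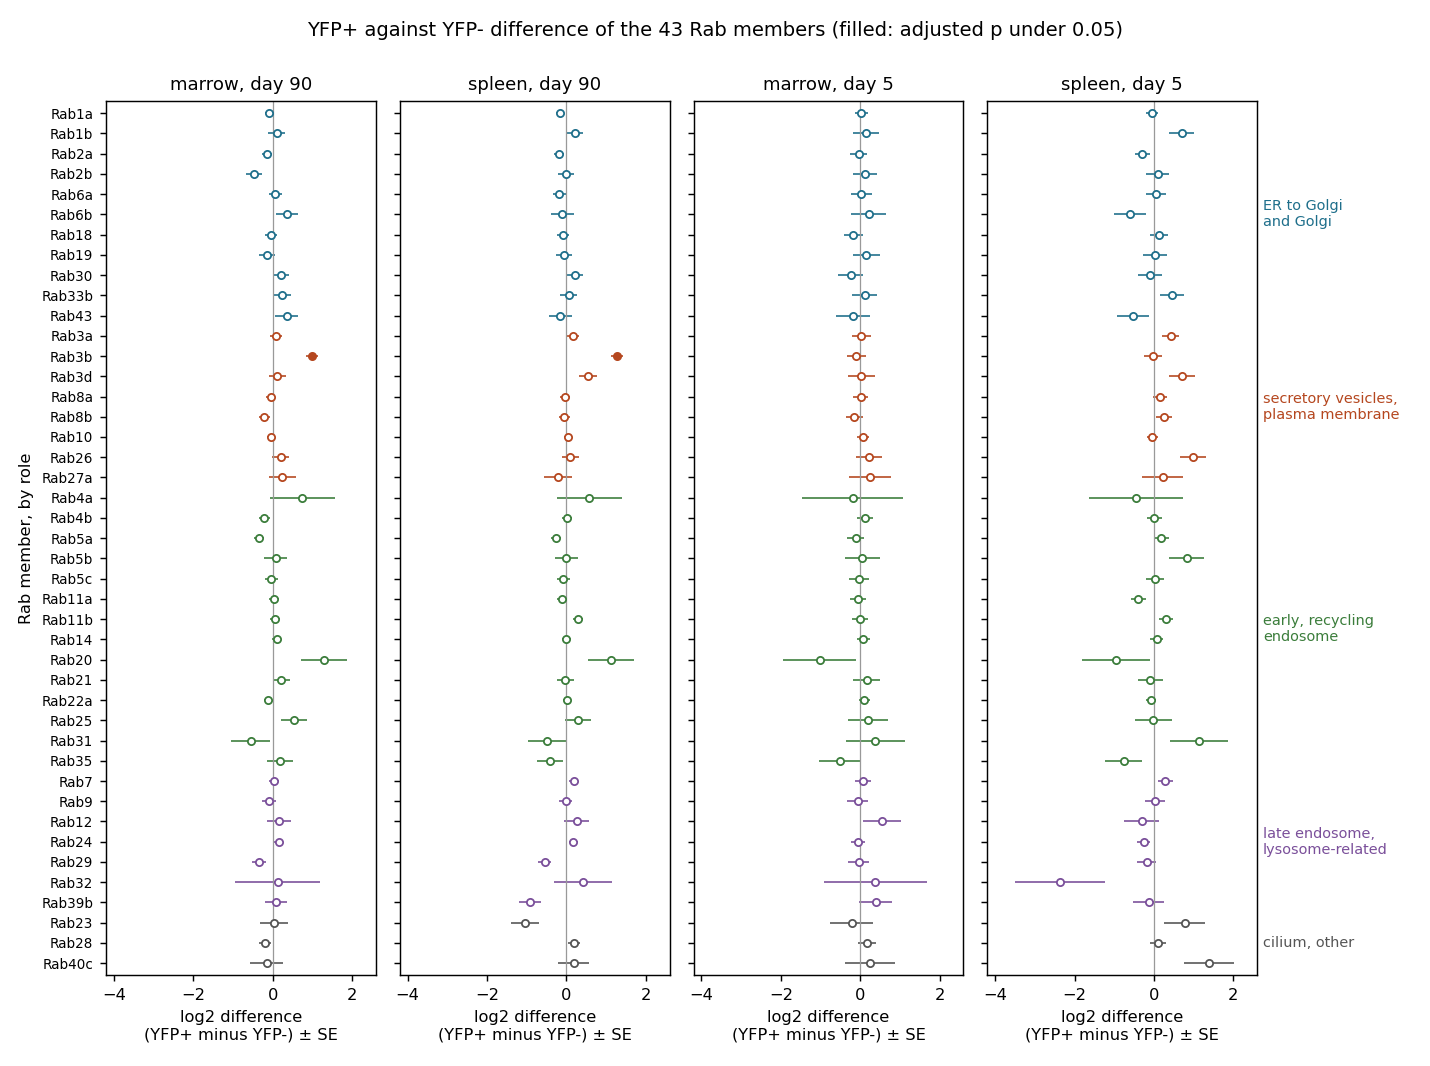
Log2 difference ± SE between YFP+ and YFP- cells for each of the 43 members, grouped and coloured by role, in marrow and spleen at day 90 and day 5. Filled points passed an adjusted p of 0.05. Rab3b is the only filled point, in the 2 day-90 panels, and the widest bars belong to members of low level or large spread between mice (Rab4a, Rab20, Rab32).

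At day 5 no member was called between YFP+ and YFP- cells in either organ by edgeR, DESeq2 or limma voom, and 0% of all genes were called by edgeR. An unadjusted p under 0.05 was reached by 0 members in marrow and 6 in spleen, against 2.04% and 15% of all genes. With the mouse block no member passed in marrow, where 0.0161% of all genes were called, and Rab26 and Rab20 passed in spleen, where 3.66% were. Rab26, a Rab of secretory granules, was at 20, 18.1, 12.2 and 9.29 CPM in YFP+ cells of mice 1 to 4 and at 11.6, 5.12 and 5.89 CPM in YFP- cells of mice 1 to 3. Its blocked log2 difference was 1.17 ± 0.28 (adjusted p = 0.044), against 0.98 unblocked (adjusted p = 0.241) and 0.88 (adjusted p = 0.238) in the blocked fit lacking the low-Sdc1 libraries.

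The day-5 spleen calls without a mouse term depended on 1 library. Without YFP- spleen of day-5 mouse 3, which left those of mice 1 and 2, 7 of 43 members were called higher in YFP+ cells. They were Rab11b, Rab1b, Rab33b, Rab3a, Rab3d, Rab40c and Rab7. That fit called 12.8% of all tested genes, so the change was not particular to Rabs. Rab40c, a Rab linked to ubiquitin ligase complexes, shows the split: it was at 9.55, 4.51, 10.6 and 7.3 CPM in YFP+ spleen of mice 1 to 4, and at 0.95, 0.374 and 7.71 CPM in YFP- spleen of mice 1 to 3. Mouse 3 was high and mice 1 and 2 low in YFP- cells. Rab3d had 53.7, 24.6 and 81.8 CPM in the same YFP- libraries. Sdc1 was at 149 CPM in YFP- spleen of mouse 2 and at 587 CPM in that of mouse 3. Summed over 9 monocyte and macrophage genes, the 3 YFP- spleens held between 50.7 and 1000 CPM and the 4 YFP+ spleens between 1.8 and 198 CPM. The part of these markers in the result was not tested.

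Between organs edgeR called no member without a mouse term, with 0.193% of all genes called in YFP+ and 0.136% in YFP- cells at day 90, 0% in YFP+ and 0.00803% in YFP- cells at day 5. Members with an unadjusted p under 0.05 numbered 4, 4, 1 and 10 in that order, against 7.39%, 8.65%, 2.39% and 17.5% of all genes. DESeq2 called Rab39b in YFP+ cells at day 90, with 0.771% of all genes, and limma voom called none. With the mouse block Rab39b was higher in YFP+ marrow (7.93 ± 2.77 CPM) than in YFP+ spleen (4.02 ± 1.43 CPM) at day 90, by 1.03 ± 0.25 on the log2 scale (adjusted p = 0.0291, 1.61% of all genes called). Rab19, a Golgi-associated Rab, was higher in YFP- marrow (54 ± 16.7 CPM) than in YFP- spleen (37.6 ± 8.52 CPM) by 0.49 ± 0.11 with the block (adjusted p = 0.0245, 0.437 without it, 0.995% of all genes called), in 8 of 8 mice. At day 5 the block called no member in YFP- cells, with 0.0482% of all genes called. Without YFP- spleen of day-5 mouse 3, 9 members were called higher in YFP- marrow at day 5, while 15.3% of all genes were called.

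Between ages no member was called in any of the 4 sorts and organs by edgeR, DESeq2 or limma voom. The share of all genes called was 0.0241% in YFP+ marrow, 0.0321% in YFP+ spleen and 0% in both YFP- groups, and 1, 1, 0 and 7 members had an unadjusted p under 0.05 in YFP+ marrow, YFP+ spleen, YFP- marrow and YFP- spleen, against 5.47%, 4.75%, 2.92% and 13.1% of all genes. Between days, Rab5a, the early endosome Rab, came closest after Rab3b. In YFP+ marrow it was at 73.6, 72.7 and 77.5 CPM at day 5 and at 43, 56.1, 46.1 and 28.8 CPM at day 90, without overlap, as for 13.8% of all tested genes, a log2 difference of -0.78 ± 0.19 (adjusted p = 0.0866). DESeq2 called 2 members there, with 1.07% of all genes, and edgeR called Rab5a as well without YFP- spleen of day-5 mouse 3 (adjusted p = 0.047).

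Rab4a, a recycling endosome Rab, differed between mice at day 90 more than between groups. In 24-week mice at day 90 its 4 libraries ran from 0 to 1.61 CPM in M2, from 16 to 17.3 CPM in F12, from 3.05 to 11.1 CPM in F15 and from 10.1 to 25.3 CPM in M3. In young mice Rab4a ran from 0.102 to 0.593 CPM in the 4 libraries of F2, from 9.98 to 16.3 CPM in F7 and from 2.56 to 8.91 CPM in F9, and its means in M7 and M2 were 1.58 and 0.967 CPM. At day 5 the mice overlapped, with Rab4a from 4.82 to 7.96 CPM in mouse 1, from 5.68 to 13.1 CPM in mouse 2 and from 7.48 to 10.7 CPM in mouse 3. At day 90 M2 (24-week) and F2 were low, and F12 and M3 high, in both organs and both sorts. Adding mouse to the group means took up 90.5% of the residual variance of Rab4a on the log2 scale, at percentile 99.8 of all tested genes.

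The same share was 84% for Rab19, 79.7% for Rab21, 79% for Rab20, 78.9% for Rab1a and 75.4% for Rab3b. Its median was 50.1% over the members and 44.6% over all tested genes, where mouse terms fitted to unrelated values would take about 32.3%. For Rab3b, F9 was highest in YFP+ and YFP- cells of both organs among young mice. Among 24-week mice M3 was highest in both sorts in spleen. In their marrow F15 was highest in YFP- cells (31.9 CPM) and M3 in YFP+ cells (56.9 CPM). Whether the mouse level and the YFP difference of Rab3b vary separately was not tested.

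**Figure D5:**
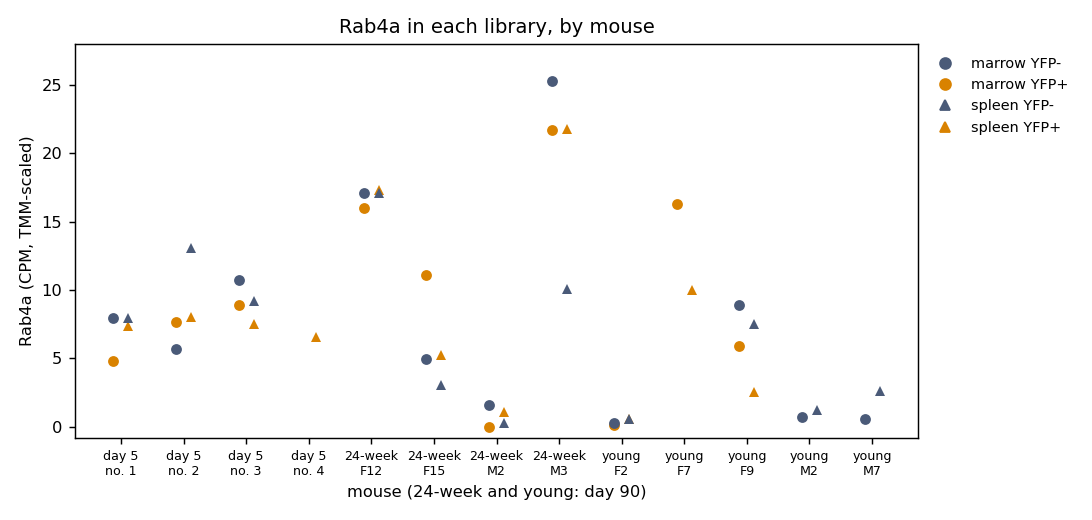
Rab4a in each library, in CPM on a linear axis, by mouse (day-5 mice by replicate number, 24-week and young mice at day 90 by name). Circles are marrow and triangles spleen, and colour gives the YFP sort. All 4 libraries of M2 (24-week) and of F2 lie below 1.61 CPM or at it, and all 4 of F12 lie between 16 and 17.3 CPM.

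Over the 12 group means, Rab20 (Pearson r = 0.733), Rab24 (0.652) and Rab6b (0.542) were the members most like Rab3b on the log2 scale, and Rab29 (-0.94), Rab5a (-0.769) and Rab23 (-0.669) the least like it. Outside the family, genes with a mean of at least 10 CPM were ranked, leaving out unnamed rows and names of the Gm-number or Rik type. Among these the closest were Golgb1 (0.92), Itpr2 (0.908), Slamf9 (0.898), Lmo2 (0.894) and Copz2 (0.889). These values describe 12 means that share mice and libraries. Golgb1 encodes giantin, a Golgi tether. Its level in spleen at day 90 ran from 67.9 to 100 CPM in YFP+ cells (median 91.6) and from 26.7 to 66.1 CPM in YFP- cells (median 57.2). The groups did not overlap, as for 1.14% of all tested genes. Golgb1 was picked here for its likeness to Rab3b, so this separation is not independent of that likeness.

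The genes that regulate and read Rabs were mostly flat between YFP sorts. Of 42 tested Rab GEFs, 33 GAPs, 46 effectors and 10 chaperones and prenylation genes, none was called in marrow at day 90 or in either organ at day 5 by edgeR without a mouse term. In spleen at day 90, with 3.53% of all genes called, 2 GAPs and 3 effectors passed, and their lists had medians of 0.05 and 0 against -0.01 over all genes. Evi5, a GAP linked to Rab11, was higher in YFP+ cells (82.4 ± 22.7 against 44.2 ± 14 CPM, log2 difference 0.92 ± 0.21, adjusted p = 0.00788), and Tbc1d14, which acts with Rab11 on recycling endosomes and autophagy, was lower (9.45 ± 2.05 against 21.5 ± 8.63 CPM, -1.17 ± 0.31, adjusted p = 0.0199). Golgb1, an effector listed for its Golgi tethering, was higher by 0.75 ± 0.17 (adjusted p = 0.00691).

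The other pair of effectors rested on few counts. Myo5b, a motor for Rab11 vesicles, averaged 1.46 ± 1.21 CPM in YFP+ and 0.0147 ± 0.0415 CPM in YFP- spleen (adjusted p = 0.0181). Sytl3, a synaptotagmin-like protein that binds Rab27, averaged 0.236 ± 0.416 and 1.38 ± 1.16 CPM (adjusted p = 0.0278), with a median of 0 in YFP+ cells. Of 44 tested SNAREs, tethers and exocytosis genes, none was called between YFP sorts by edgeR without a mouse term. With the block, Vamp5, Vamp8 and Stx16, SNAREs of vesicle fusion, were lower in YFP+ spleen at day 5, by -1.90, -0.96 and -1.82 on the log2 scale (adjusted p = 0.044, 0.0449 and 0.044). In that fit 3.66% of all genes were called. When the 3 libraries lowest in Sdc1 were left out of it, 0% were called, so these calls did not hold.

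Beside these differences, some markers moved with YFP in spleen at day 90. The 8 eosinophil, basophil and mast cell genes summed to between 1280 and 3050 CPM in YFP+ and between 457 and 1130 CPM in YFP- spleen. Nearly all of that was Prg2 (median 1980 and 885 CPM), while Epx had no count in 42 libraries, Fcer1a in 38 and Cpa3 in 37. The 8 proliferation genes summed to between 14.4 and 48 CPM in YFP+ and between 45.8 and 291 CPM in YFP- spleen, and to between 23 and 145 and between 50.2 and 276 CPM in marrow. The 7 NK cell genes summed to between 3.37 and 27.2 CPM in YFP+ and between 9.39 and 87.6 CPM in YFP- spleen. Most of that was Gzma (median 3.92 and 38.9 CPM) and Prf1 (1.27 and 12 CPM). Ncr1 and Klrb1c had no count in 42 libraries each and Klre1 in 40, and Klrk1 lay the other way (median 0.799 and 0 CPM). The part of these markers in the Rab differences was not tested. In bulk RNA, fewer cells of a kind and less RNA in each cannot be told apart.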

How the data were processed

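RNA from 44 sorted samples was made into libraries with a low-input SMART-Seq kit and Nextera XT, per the labels' protocols. Gene-level expected counts were deposited without immunoglobulin genes, and 3.1% of values are not whole. Per the submitters' processing notes, DESeq2 1.26.0, RSEM 1.3.1 and STAR 2.6.1b were among the tools, and both GRCm38 and GRCm39 are named, without roles. Rounded expected counts, as the authors deposited them, were fitted with edgeR 4.0.16 (R 4.3.3), a quasi-likelihood model with TMM scaling and a minimum count of 10 in filterByExpr, over 43 libraries, 12 groups and 13 mice. It tested 12457 genes in 21 comparisons, with Benjamini-Hochberg adjustment within each and a threshold of 0.05. CPM are TMM-scaled, except in the rule for membership. At day 90 the 2 ages were averaged with equal weight. A library of day-5 marrow whose title and cell type label disagree entered no group.

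Residuals of 2 libraries of 1 mouse correlated at a median r of 0.18 over 57 pairs, against -0.09 over 232 pairs of other mice of the cohort, and the labels name the mouse, so values with mouse as a block stand beside results whose call they change. Alternatives were DESeq2 1.42.0, limma 3.58.1 (voom), other scaling and filters, fewer groups, the block, and libraries left out. The scripts were tested on simulated data. Named were Rab3b and every member called by YFP, the other Rab3 and Rab27 genes, 3 genes on each side of the 1 CPM level, the members and genes most and least like Rab3b, and up to 4 called genes per pathway list. Rab4a, Rab5a, Rab19, Rab20, Rab23, Rab24, Rab26, Rab29, Rab39b and Rab40c were named after their values were seen. The members and lists were chosen with earlier results of these data known. Promoters came from RefSeq (GRCm38.p6), exon lengths from GENCODE M21 (GRCm38), and all 43 members matched by gene ID.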

Additional observations from a re-analysis of the deposited data

Results flagged for a closer look

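In groups of 4 libraries, 6 of 70 tested sets of values for named members held a library far from the other 3, where chance gives about 1 in 20. These were Rab20 in YFP- marrow of 24-week mouse F15 at day 90 (28.1 CPM), Rab39b in YFP+ spleen of 24-week mouse M3 (5.74 CPM) and Rab26 in YFP- spleen of 24-week mouse F12 (12.7 CPM). Rab19 stood apart in YFP+ spleen of day-5 mouse 2 (59.4 CPM) and of 24-week mouse F15 at day 90 (25.4 CPM). Rab4a stood apart in YFP- marrow of young mouse F9 (8.91 CPM).

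With mouse as a block, the spleen YFP difference was larger at day 90 than at day 5 for Rab3b, by 1.22 on the log2 scale (edgeR adjusted p = 0.00618), and for Rab20, by 3.17 (adjusted p = 0.0178).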

How the results depend on the processing

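Of the counts of called genes, 209 stayed within 1.5 times under the alternatives other than leaving out single libraries and 20 moved. Many of the 209 were 0 in both fits, so the tally says little about comparisons with calls. Members called by YFP in spleen at day 90 ran from 1 to 4. DESeq2 called 3 members by YFP in spleen at day 90 (5.32% of all genes), 1 between organs in YFP+ cells at day 90 (0.771%), 2 between days in YFP+ marrow (1.07%) and 1 for the spleen YFP difference between days (0.313%). The replicate block (mouse) called 2 members by YFP in marrow (0.963% of all genes) and 4 in spleen (5.99%) at day 90, with 9 pathway genes. In spleen at day 5 it called 2 members and 7 pathway genes, with 3.66% of all genes. It called 1 member between organs in YFP+ (1.61%) and 1 in YFP- cells (0.995%) at day 90, and 2 for the spleen YFP difference between days (0.731%). When the blocked fit also dropped the 3 low-Sdc1 libraries, an alternative chosen after seeing the data, the members numbered 2, 4 (8 pathway genes), 1, 1 and 1 for marrow, spleen, both organ comparisons and the YFP difference. The shares of all genes called there were 0.981%, 6.71%, 2.8%, 0.8% and 0.149% in that order. Among F-prefixed mice 0 members were called in marrow (0.0249% of all genes) and 1 pathway gene in spleen (1.3%) at day 90. Leaving out single libraries gave 1 to 3 members and 3 to 7 pathway genes by YFP in spleen at day 90, and 0 to 1 member between ages in YFP- spleen. The fits with 3 members called 623 and 483 of 12443 genes, and the fit with 1 member between ages called 275 of 12443. At day 5 leaving out single libraries gave 0 to 7 members and 0 to 33 pathway genes by YFP in spleen, 0 to 9 members between organs in YFP- cells, and 0 to 1 for the change between days in YFP- spleen and for the spleen YFP difference between days. The highest counts came without YFP- spleen of day-5 mouse 3. For these 4 comparisons that fit called 12.8%, 15.3%, 0.464% and 0.928% of all genes in that order. The age difference of the Rab20 YFP difference in marrow (-1.13) ran from -1.87 to 0.17 and changed sign without YFP- marrow of 24-week mouse F15; the cause was not tested. Groups of 3 or 4 mice limit what can be called, and members at a few CPM rest on few counts.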

Other observations

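The day-5 marrow library that entered no group, from day-5 mouse 4, had 22.3 CPM of Rab3b, 24 CPM of Rab20, 49.1 CPM of Rab3d and 1.79 CPM of Rab27a.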
